A study of Homo sapiens with 4 samples.

Results

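Metallothioneins, the metal-responsive transcription factor MTF1 and the zinc transporters of the families SLC30A and SLC39A were examined in H1299 cells exposed to mercury chloride (HgCl2). The members are the protein-coding genes whose symbols are MT1 followed by a capital letter, MT2A, MT3, MTF1, SLC30A followed by digits or SLC39A followed by digits. They are 35 of the 61193 genes listed in the count table, namely 10 metallothioneins, MTF1, 10 SLC30A genes and 14 SLC39A genes, and 209 of the 227368 listed transcripts belong to them. H1299 is an established cell line from a human non-small-cell lung cancer. In the HgCl2 group the cells received 5 μM HgCl2 for 48 h, and in the EtOH group they received the solvent, ethanol, for the same time. The treatment text of the labels gives the HgCl2 dose for every sample, whereas the study's methods give controls the solvent alone, and the group names of the labels were used. Polyadenylated RNA was sequenced as read pairs, and the reads were counted on each annotated transcript. Each group is represented by 2 columns of counts.

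Metallothioneins are small cysteine-rich proteins that bind zinc and copper, and also toxic metals such as cadmium and mercury, through the sulfur of their cysteines. Zinc-loaded MTF1 binds metal response elements, and metallothionein genes and the zinc exporter gene SLC30A1 are its best known targets. SLC30A proteins (ZnT) move zinc out of the cytosol, across the plasma membrane or into organelles, and SLC39A proteins (ZIP) move zinc into the cytosol.

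The upstream regions of SLC30A1, which holds the largest increase among the members whose mean reached 200 counts, and of MT2A, the metallothionein that most cell types express, are shown for the metal response element core. They are the 250 bases before the RefSeq transcription start sites, read 5′ to 3′ on the strand of the gene, in GRCh38.p14. Capitals mark matches to TGCACNC or TGCGCNC on either strand, and in these windows no match overlapped another.
SLC30A1, chr1:211579162-211579411, minus strand: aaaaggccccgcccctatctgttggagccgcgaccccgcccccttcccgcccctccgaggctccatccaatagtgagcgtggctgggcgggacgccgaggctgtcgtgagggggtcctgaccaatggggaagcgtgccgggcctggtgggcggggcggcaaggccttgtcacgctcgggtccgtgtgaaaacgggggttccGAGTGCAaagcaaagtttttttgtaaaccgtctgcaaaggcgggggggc
MT2A, chr16:56608334-56608583, plus strand: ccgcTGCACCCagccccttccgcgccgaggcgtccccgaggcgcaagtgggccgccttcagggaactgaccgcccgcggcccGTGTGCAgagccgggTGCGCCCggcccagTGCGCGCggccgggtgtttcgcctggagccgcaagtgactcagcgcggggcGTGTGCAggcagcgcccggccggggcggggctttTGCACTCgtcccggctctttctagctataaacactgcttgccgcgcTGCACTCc

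The SLC30A1 window has 1 match, at bases -49 to -43 from the start site, and a further match lies at bases 25 to 31 after it. The MT2A window has 7 matches, the nearest at bases -8 to -2, and 1 more lies at bases 31 to 37. Over windows of 250 bases before and 50 bases after the start, 10377 of 35116 RefSeq promoters (29.6%) hold at least 1 match, 8.60% hold at least 2 and 0.601% hold at least 4. RefSeq promoters were found for 26 of the 35 member genes, with 35 start sites in all, and 17 of these (48.6%) hold at least 1 match. Each of the 4 metallothionein promoters (MT1B, MT1H, MT1X and MT2A) has at least 2 matches, and 3 of the 4 have at least 4. Among the zinc transporters, 6 of 11 SLC30A promoters and 7 of 19 SLC39A promoters hold a match. No match was found in the promoter windows of MTF1, SLC30A9, SLC30A5 or SLC39A7. The windows of SLC30A4 and SLC39A6 hold 1 match each, as does the window of 1 start site each of SLC39A8 and SLC39A10. Whether matches go with changes in counts was not tested. A match is a description of the letters and not a measured binding site.

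The coding sequences of MT2A and MT1X are shown because how far they resemble each other bears on how reads can be placed among them. They were taken from GENCODE transcripts on GRCh38, each is 186 bases long with the stop codon, and capitals mark the in-frame cysteine codons, TGC and TGT, of which each has 20. The spans given run from the first to the last coding exon, without the stop codon, on the plus strand.
MT2A, chr16:56608656-56609351: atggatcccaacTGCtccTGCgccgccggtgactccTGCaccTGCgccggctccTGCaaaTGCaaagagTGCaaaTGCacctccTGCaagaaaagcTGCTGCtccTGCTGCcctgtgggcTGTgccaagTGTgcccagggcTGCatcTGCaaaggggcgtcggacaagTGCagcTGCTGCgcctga
MT1X, chr16:56682541-56684046: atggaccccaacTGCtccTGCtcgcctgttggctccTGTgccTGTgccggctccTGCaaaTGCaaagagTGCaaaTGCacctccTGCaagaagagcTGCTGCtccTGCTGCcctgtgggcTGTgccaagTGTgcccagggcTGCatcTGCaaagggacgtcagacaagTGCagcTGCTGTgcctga

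MT1X and MT2A are identical at 92.5% of the coding bases. Over the 21 metallothionein pairs of equal coding length the identity ranged from 88.7% to 93.5%, with a median of 90.9%. The longest exact stretch shared by a pair of metallothionein transcripts of different genes was 15 to 96 bases over 45 pairs, and in 1 pair, MT1G and MT1X, it reached the read length of 75 bases.

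The count totals lay between 4720978 and 5053120 per column, and they set the depth for every value given here. The columns of a group resembled each other more closely than independent samples can. Over 12382 transcripts the variance of the difference between the EtOH columns was 0.505 times (95% confidence interval 0.492 to 0.517) what counting noise gives between independent samples, and over 10611 transcripts the HgCl2 columns gave 0.516 (0.503 to 0.530). Since columns sharing a group differed by less than sampling noise, each group entered as 1 sample, taken at the mean of its columns. The comparison of HgCl2 with EtOH is thus between single samples and has no replicate check. Overlap or separation of the columns, and values with 1 column left out, describe the counts and add no replicate support. No p-value is given, and the 95% intervals are exact (Clopper-Pearson) and cover counting error only. Of the marker genes read for H1299, KRT8, KRT18, VIM and NKX2-1 have counts and KRT19, EPCAM and SFTPC have 0.

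Most member transcripts were not counted at all. Of the 209 transcripts, 30 have a count in any column and 11 have a mean of at least 10 counts in a group. Of the 35 genes, 18 (51.4%) have 0 counts in all 4 columns, against 8327 of 19918 protein-coding genes (41.8%). Counts were found where a transcript has bases of its own, that is, bases that no other listed transcript covers on either strand. None of the 76 member transcripts without such a base has a count. Of the 64 transcripts whose longest run of own bases is below 150, 7 have a count, and of the 69 with a run of at least 150, 23 have a count. A value of 0 is therefore not read as absence of the RNA, and values are given per transcript and not as the level of a gene. In the plot of own bases and counts only the transcripts without an own base are set apart. Most transcripts with a run of at least 150 also lie at 0 counts.

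**Figure D1:**
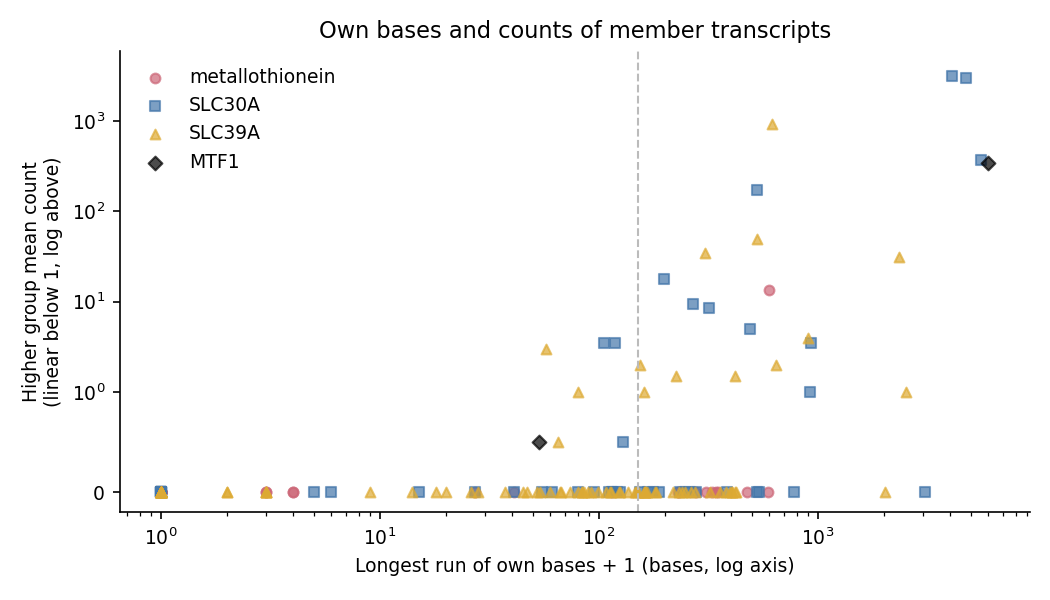
Each point is one of the 209 member transcripts, placed by its longest run of bases covered by no other listed transcript (bases plus 1, log axis) and by the higher of its group mean counts (linear below 1, log above). The dashed line marks a run of 150 bases; transcripts without an own base, at the left edge, all lie at 0 counts.

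The 11 transcripts whose mean reached 10 counts in a group are also the 11 that passed the filter on low values, a group mean of over 1 FPKM in EtOH or HgCl2, as 17547 transcripts did. Their log2 fold changes come from edgeR fitted over all 17547, scaled by TMM, and are HgCl2 over EtOH. None of the 11 was at least 2-fold higher in HgCl2, 4 were at least 2-fold lower and 7 lay within 2-fold, and the median log2 fold change was -0.19. Among all 17547 transcripts 19.2% were 2-fold higher and 34.1% 2-fold lower, with a median of -0.21. Such folds are common where counts are few. Of 5747 transcripts whose mean lay from 10 to under 50 counts, 61.3% were past 2-fold in either direction, 31.4% higher and 29.9% lower. Of the 2712 whose mean reached 200 counts, which include 5 of the members, 6.67% were past it, 4.65% higher and 2.03% lower. Of the 850 whose mean reached 1000 counts, which include SLC30A1-201 and SLC30A9-201, 2.59% were past it, 2% higher and 0.588% lower. Of the 4 member transcripts that were 2-fold lower, SLC39A7-202, SLC30A5-201 and MT1X-204 passed the filter only through EtOH. Their means were 2.64, 2.49 and 1.42 FPKM in EtOH and 0.0943, 0.518 and 0.461 in HgCl2. The number of lower members and the family medians therefore depend in part on the filter. All 4 have a mean of at most 49 counts in either group. The plot of counts by column shows this spread of depth among the members.

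**Figure D2:**
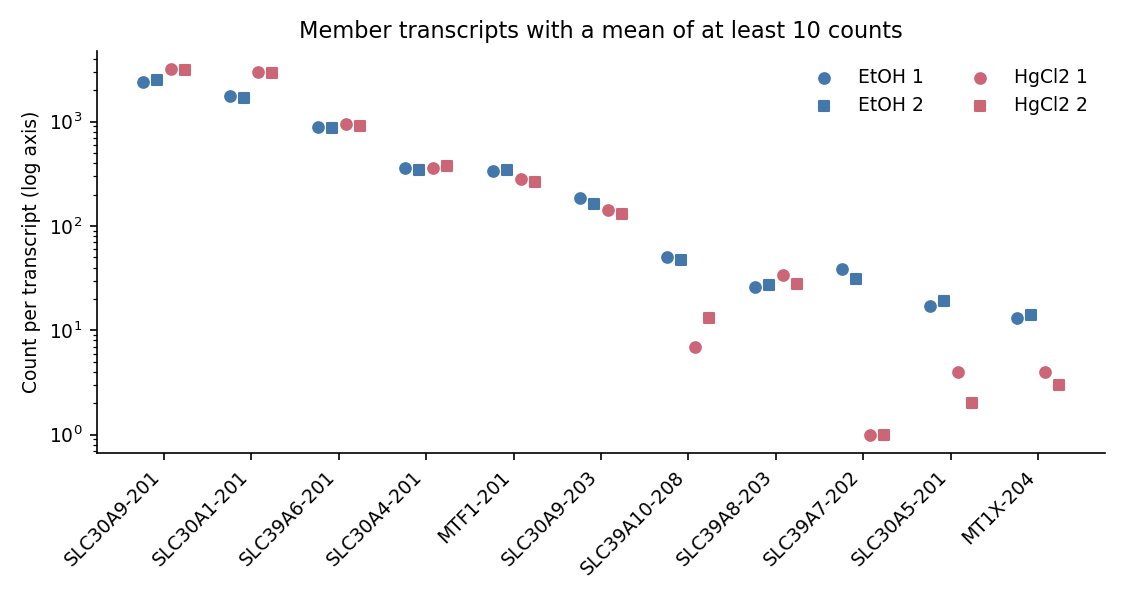
Counts per transcript (log axis) in the 4 columns for the 11 member transcripts whose mean reached 10 counts in a group; blue is EtOH, red is HgCl2, circles are column 1 and squares column 2. SLC30A1-201 is higher in the HgCl2 columns, and MT1X-204, SLC39A10-208, SLC39A7-202 and SLC30A5-201 are lower there.

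Metallothioneins were nearly uncounted. MT1A, MT1B, MT1E, MT1F, MT1G, MT1H, MT1M, MT2A and MT3 have 0 counts in all 4 columns, which for counting error allows up to 3 counts in a column on the bases that were counted. MT2A has 5 listed transcripts and none has a base of its own, so its RNA could not be followed. MT1B has at most 40 own bases on a transcript. The zeros of other genes of the family stand beside more own sequence. MT1A has 1 transcript of 396 bases, all of them its own, with a longest run of 229. MT1E and MT1H have coding transcripts with up to 348 and 326 own bases, respectively. MT1F, MT1G and MT3, the form best known from brain, were likewise at 0. Their 1106, 341 and 665 own bases, respectively, lie on retained-intron transcripts. The coding transcripts of MT1F, MT1G and MT3 have at most 2, 4 and 2 own bases, so these zeros say little about their coding RNA.

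The metallothionein transcript with counts was MT1X-204 (ENST00000568370, chr16:56682470-56684196, plus strand), which the annotation classes as a retained-intron form of MT1X. It had 13 and 14 counts in EtOH and 4 and 3 in HgCl2. All values in HgCl2 were below those in EtOH. The log2 fold change was -1.77 with an interval of -4.03 to -0.05. Of its 1727 bases 950 are its own. The coding transcripts of MT1X, MT1X-201 and MT1X-202, had 0 counts. Neither has a base of its own, so this 0 is not read as absence of the coding RNA. MT1X-204 is the whole of the metallothionein signal in these files, so no direction is given for the family.

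MTF1, the zinc-sensing transcription factor, was read from MTF1-201 (ENST00000373036, chr1:37809574-37859592, minus strand), of whose 7937 bases 7576 are its own. The counts were 337 and 345 in EtOH and 280 and 261 in HgCl2. The columns of the groups did not overlap on counts, but the log2 fold change after scaling was -0.19, with an interval of -0.43 to 0.04 that includes 0. In FPKM the means were 7.82 and 7.75. Among transcripts whose mean reached 200 counts, 20.6% had a lower log2 fold change. A further transcript, MTF1-202, had 1 count in the column EtOH replicate 2.

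SLC30A1 (ZnT1), the zinc exporter of the plasma membrane, had the largest increase among the 11 tested member transcripts. It has a single listed transcript, SLC30A1-201 (ENST00000367001, chr1:211571568-211579161, minus strand), and all of its 5893 bases are its own. The counts were 1771 and 1673 in EtOH, against 2997 and 2932 in HgCl2. Both HgCl2 columns lay above both EtOH columns. The log2 fold change was 0.93 (0.84 to 1.01), a ratio of 1.90 (1.79 to 2.02), just inside the 2-fold limit on this scale. On the deposited FPKM scale the columns were 54.7, 51.7, 115.7 and 113.2, and the ratio of the means was 2.15, past 2-fold.

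Because the scales place the groups differently, SLC30A1 was also set against the well-counted transcripts. These 2712 transcripts, whose mean reached 200 counts, had a median log2 fold change of 0.21 and quartiles of -0.11 and 0.49. SLC30A1-201 lay 0.72 above this median, and 161 of these transcripts had a higher value. Among the 850 transcripts whose mean reached 1000 counts 23 had a higher value, and 97.2% a lower one. Without 1 column in turn this distance was 0.68 to 0.76. Scalings and filters shift SLC30A1 and this median alike and do not test the distance, while the log2 fold change itself ranged from 0.72 to 1.10 over them. In the histogram of well-counted transcripts it is the member farthest to the right.

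**Figure D3:**
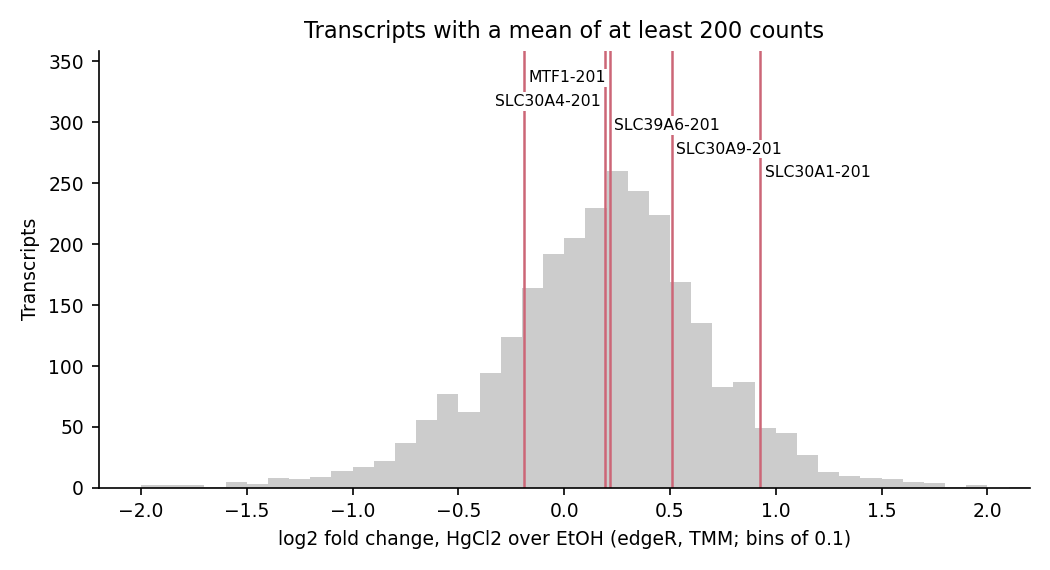
Histogram of log2 fold changes (HgCl2 over EtOH, edgeR with TMM, bins of 0.1) of transcripts whose mean reached 200 counts, shown from -2 to 2 with the number of transcripts on the y axis. Red lines mark the 5 member transcripts of that depth: MTF1-201 at -0.19, SLC30A4-201 at 0.19, SLC39A6-201 at 0.22, SLC30A9-201 at 0.51 and SLC30A1-201 at 0.93.

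SLC30A9 (ZnT9), a mitochondrial zinc transporter, had the most counts of the family. Its coding transcript SLC30A9-201 (ENST00000264451, chr4:41990530-42090461, plus strand) had 2412 and 2494 counts in EtOH and 3190 and 3130 in HgCl2, higher in both HgCl2 columns. The log2 fold change was 0.51 (0.43 to 0.59), which is 0.30 above the median of the well-counted transcripts, and 76.4% of these had a lower value. The retained-intron transcript SLC30A9-203 (ENST00000509683, chr4:42063034-42078851) had 184 and 163 counts in EtOH and 141 and 131 in HgCl2. Its log2 fold change was -0.21 (-0.54 to 0.12). As a share of the counts of both transcripts SLC30A9-203 made up 6.61% (5.69% to 7.62%) in EtOH and 4.13% (3.47% to 4.86%) in HgCl2, intervals that do not overlap. This share does not depend on the scaling between libraries.

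SLC30A4 (ZnT4), which loads zinc into vesicles, differed little. SLC30A4-201 (ENST00000261867, chr15:45479606-45522755, minus strand) had 362 and 347 counts in EtOH and 361 and 372 in HgCl2, and the columns of the groups overlapped. The log2 fold change was 0.19 (-0.02 to 0.41), 0.02 below the median of the well-counted transcripts.

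SLC30A5 (ZnT5), a zinc transporter of the early secretory pathway, was read from SLC30A5-201 (ENST00000380860, chr5:69093991-69104740, plus strand), with 243 own bases of 1317. The counts were 17 and 19 in EtOH and 4 and 2 in HgCl2, all lower in HgCl2. With means of 18 and 3 counts the ratio was 0.184, with a counting interval of 0.0347 to 0.631. Its retained-intron transcript SLC30A5-205 had 5 and 5 counts in EtOH and 2 and 0 in HgCl2, and the coding transcript SLC30A5-202, with 794 own bases, had 0.

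Other exporters were close to the floor. SLC30A6, which pairs with SLC30A5, had 10 and 9 counts on SLC30A6-201 in EtOH and 5 and 9 in HgCl2, and the groups overlapped. SLC30A7, a Golgi zinc transporter, had 7 and 10 on SLC30A7-201 in EtOH and 3 and 1 in HgCl2. SLC30A3 had 4 and 3 on the retained-intron transcript SLC30A3-208 in EtOH and 0 and 1 in HgCl2. SLC30A2, SLC30A8 and SLC30A10 had 0 counts, SLC30A10 in spite of a run of 3061 own bases on a coding transcript. Over the family, the median log2 fold change of the 5 tested transcripts was 0.19, and the summed counts of its 54 listed transcripts were 4781 and 4728 in EtOH and 6708 and 6585 in HgCl2. SLC30A1-201 and SLC30A9-201 hold most of these counts.

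Among the importers, SLC39A6 (LIV-1), a plasma membrane zinc importer known from estrogen-responsive breast cancer, had the most counts. SLC39A6-201 (ENST00000269187, chr18:36108531-36129340, minus strand) had 896 and 877 counts in EtOH and 957 and 909 in HgCl2. The HgCl2 columns were the higher ones, by little. The log2 fold change was 0.22 (0.08 to 0.35), which is 0.01 above the median of the well-counted transcripts, and 50.8% of these lay below it.

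SLC39A10, a plasma membrane importer that forms complexes with SLC39A6, was counted mainly on SLC39A10-208 (ENST00000464301, chr2:195657235-195658587, plus strand), a transcript without a defined coding sequence. It had 51 and 47 counts in EtOH and 7 and 13 in HgCl2, without overlap. The log2 fold change was -2.14 (-3.30 to -1.15). The coding transcript SLC39A10-203, of 337 bases, had 1 count in the column EtOH replicate 2. The longer coding transcript SLC39A10-201 has 0 own bases of 5222, so its 0 counts are not read as absence of the RNA.

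SLC39A7, which releases zinc from the endoplasmic reticulum into the cytosol, was read from SLC39A7-202 (ENST00000374677, chr6:33200867-33204437, plus strand), with 303 own bases of 2413. The counts were 39 and 31 in EtOH and 1 and 1 in HgCl2. The HgCl2 value was 31.7-fold lower with a counting interval of 5.33-fold to 1287-fold, since it rests on a mean of 1 count.

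SLC39A8, an importer of zinc, manganese and cadmium, had counts mainly on SLC39A8-203 (ENST00000424970, chr4:102251080-102345501, minus strand), which the annotation classes as a target of nonsense-mediated decay. It had 26 and 27 counts in EtOH and 34 and 28 in HgCl2. The HgCl2 columns were above the EtOH columns, but the log2 fold change of 0.37 had an interval from -0.43 to 1.18. Its coding transcript SLC39A8-202 had 2 and 1 counts in EtOH and 0 in HgCl2. Another coding transcript, SLC39A8-201, has 0 own bases of 3152, so its 0 counts are not read as absence of the RNA.

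SLC39A3, SLC39A9, SLC39A11 and SLC39A14 had counts but no transcript with a mean of 10. SLC39A14, an importer of zinc, manganese and iron, had 2 and 1 counts on SLC39A14-207 in EtOH and 2 and 2 in HgCl2. SLC39A9-205 had 3 and 5 counts in EtOH and 2 and 3 in HgCl2, and SLC39A3-202, with 2524 own bases, had 1 and 1 in EtOH and 0 in HgCl2. SLC39A11-216 had 3 counts in the column HgCl2 replicate 2 alone. SLC39A1, SLC39A2, SLC39A4, SLC39A5, SLC39A12 and SLC39A13 had 0 counts. SLC39A1, a widely expressed importer, has a longest run of 122 own bases and SLC39A12 of 53, whereas SLC39A4, the intestinal importer, has 421 on a coding transcript. Over the family, the median log2 fold change of the 4 tested transcripts was -0.96, while the summed counts, which SLC39A6-201 dominates, were 1026 and 997 in EtOH and 1004 and 960 in HgCl2.

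Taking all families, 19 member transcripts had counts but a mean below 10 in each group. Their group means added up to 48.5 in EtOH and 23.5 in HgCl2. Of the 19, 15 had the lower mean in HgCl2 and 4 the higher one (SLC30A9-205, SLC39A11-216, SLC39A14-205 and SLC39A14-207). Besides those described above they include SLC30A9-202, with 4 and 3 counts in EtOH and 1 and 4 in HgCl2, and SLC30A9-205, with 3 and 1 and then 4 and 3. SLC39A6-202 had 3 and 3 counts in EtOH, SLC39A9-206 had 2 and 2, SLC30A4-202 and SLC39A8-206 had 1 and 1 each and SLC30A5-207 had 1 and 0, all with 0 in HgCl2. SLC39A14-205 had 0 in EtOH and 1 and 1 in HgCl2. None of the 19 passed the filter. Over the whole table fewer transcripts had a count in the HgCl2 columns, 25432 and 25531, than in the EtOH columns, 33148 and 33106, and the part of this in the low member counts was not tested. With no filter, the median log2 fold change of all 39729 transcripts with a count was -0.83. The share of lower means among all transcripts this low was not computed, so 15 of 19 is not read as a trait of the members.

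**Figure D4:**
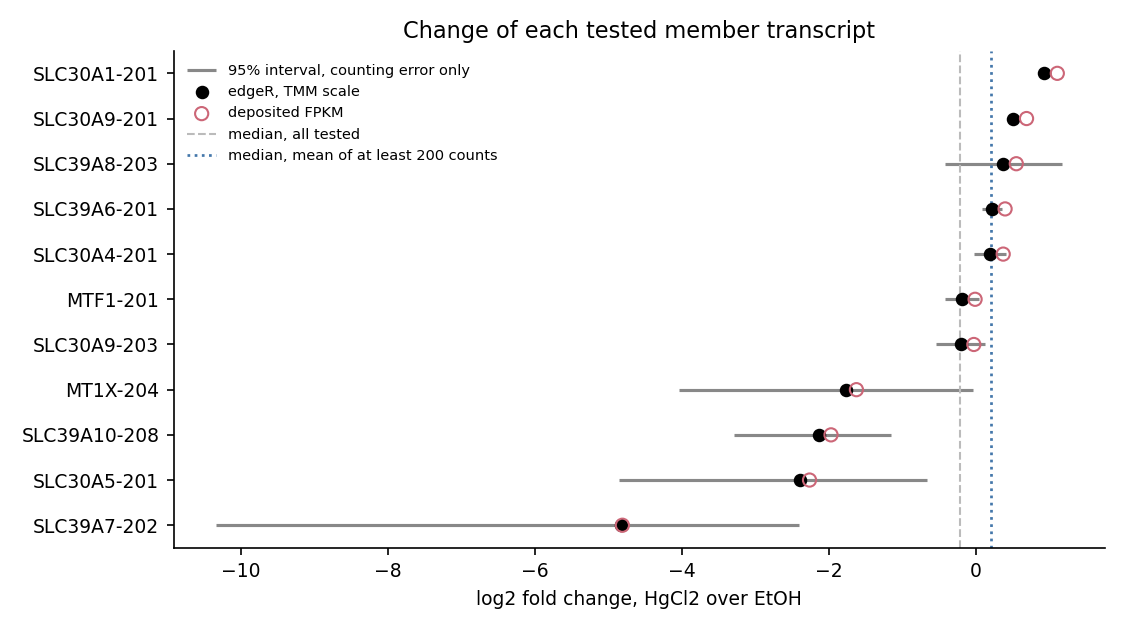
Log2 fold change (HgCl2 over EtOH) of the 11 tested member transcripts; black points are edgeR with TMM, red circles the ratio of the mean deposited FPKM, and grey lines 95% exact intervals for counting error. The dashed and dotted lines are the medians of all tested transcripts (-0.21) and of those whose mean reached 200 counts (0.21); SLC30A1-201 is the highest at 0.93 and SLC39A7-202 the lowest at -4.83.

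Ratios of transcripts within a library need no scaling between libraries. SLC30A1-201 had 0.702 counts (0.660 to 0.747) for each count of SLC30A9-201 in EtOH and 0.938 (0.892 to 0.987) in HgCl2. Against SLC30A4-201 the ratio was 4.86 (4.33 to 5.46) in EtOH and 8.09 (7.25 to 9.04) in HgCl2, and against SLC39A6-201 it was 1.94 (1.79 to 2.11) and 3.18 (2.95 to 3.42). Against MTF1-201 it was 5.05 (4.49 to 5.69) and 11.0 (9.67 to 12.5). In each of the 4 ratios the counting intervals of the groups do not overlap. SLC30A1 counts were thus higher in HgCl2 relative to each of these members, by 1.34 to 2.17 times. SLC30A1-201 was chosen as the tested member with the largest increase. The direction of these ratios was therefore set in advance, and they add no separate support. SLC30A9-201 was also higher relative to SLC39A6-201, at 2.77 (2.56 to 2.99) in EtOH and 3.39 (3.15 to 3.65) in HgCl2. For the remaining pairs of different genes computed, the intervals of the groups overlapped. The ratio of SLC30A9-201 to SLC30A4-201 was 6.92 (6.19 to 7.76) in EtOH and 8.62 (7.74 to 9.63) in HgCl2, that of SLC30A4-201 to MTF1-201 was 1.04 (0.893 to 1.21) and 1.35 (1.15 to 1.59), and that of SLC30A4-201 to SLC39A6-201 was 0.400 (0.353 to 0.453) and 0.393 (0.347 to 0.444). Of all counts on member transcripts, SLC30A1-201 took 28.8% and 27.5% in EtOH and 37.5% and 37.5% in HgCl2, whereas SLC30A9-201 took 39.2% and 41.0%, then 39.9% and 40.1%. These ratios show unequal change among the members, and not which of them stayed constant in the cells.

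**Figure D5:**
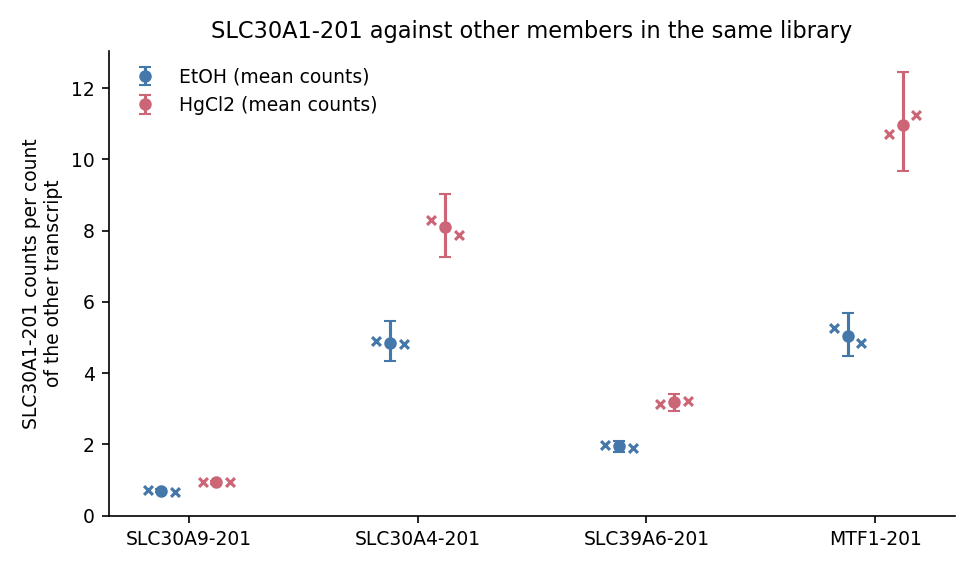
Counts of SLC30A1-201 per count of 4 other member transcripts in the same library, in EtOH (blue) and HgCl2 (red); filled points are ratios of mean counts with 95% exact intervals for counting error, and crosses are the single columns. The HgCl2 points lie above the EtOH points for each transcript, from 0.938 against 0.702 for SLC30A9-201 to 11.0 against 5.05 for MTF1-201.

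The order of levels among members depended on the length used. In FPKM, which divides by the whole transcript, SLC30A9-201 was highest in EtOH (72.4), before SLC30A1-201 (53.2) and SLC39A6-201 (45.3). In CPM per kilobase of own bases SLC39A6-201 was highest (284), before SLC30A9-201 (118.8) and SLC30A1-201 (57.8), since 617 of its 3566 bases are its own. On both scales SLC30A4-201 and MTF1-201 were lower, at 9.08 and 7.82 FPKM and at 10.7 and 8.91 CPM per kilobase of own bases. In HgCl2 SLC30A1-201 had 114.4 FPKM and SLC30A9-201 116.6, whereas per kilobase of own bases they had 106.5 and 163.8 CPM, with SLC39A6-201 at 320.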

How the data were processed

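RNA-seq of H1299 cells in 2 groups, EtOH and HgCl2 (5 μM, 48 h), was analysed from tables with 2 columns per group, assigned by their names. The authors trimmed reads with Trim Galore, aligned them with STAR 2.5.4b to GRCh38 and deposited raw counts per Ensembl transcript made with Rsubread. The counting options are not given in the sources used here, and reads shared by several transcripts may have been dropped or split. The authors then computed the FPKM values they deposited with DESeq2 1.26.0.

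Log2 fold changes were computed with edgeR 4.0.16 (glmQLFit, TMM, R 4.3.3) over the 17547 transcripts whose group mean exceeded 1 FPKM in EtOH or HgCl2. The step was also run on simulated counts with independent columns and few changed transcripts. These data differ in both respects, so that run does not check the scaling used here. Because columns of a group differed by less than sampling noise, the planned tests across conditions were not reported, and 95% Clopper-Pearson intervals of mean counts are given. Folds of at least 2 were counted, and the floor for 0 counts was 3. Alternatives used DESeq2 1.42.0, limma 3.58.1 (voom, and log2 of FPKM plus 1 or 0.1), other filters, a replicate block, gene sums and each column left out.

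GENCODE 44 gave names, positions and own bases (98.3% of identifiers were found, with 99.8% of the counts). Identifiers come from an earlier Ensembl release. Promoters come from RefSeq (GRCh38.p14). Members with a mean of at least 10 counts were named in full. Other metal genes were named when past 2-fold with a mean of at least 30 counts, and FTL, FTH1-209, SLC31A1 and the main transcripts of SCO1, IREB2 and SLC25A37 were added after their values were seen. Some items that the rules cover are not reported here. Members and lists were chosen with earlier results of these data known.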

Additional observations from a re-analysis of the deposited data

How the results depend on the processing

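Of the 156 alternative values of the named member transcripts, 139 moved by less than their counting interval and no 2-fold value changed sign. The number of member transcripts at least 2-fold higher, 0 in the edgeR analysis, was 4 with no filter on low values, where every transcript with a count enters, and 1 on the FPKM scale with a pseudocount of 1 or 0.1. The transcript gained on the FPKM scale was SLC30A1-201, at 1.09 and 1.10. It also passed 2-fold with no filter, at 1.07. The number at least 2-fold lower, 4, was 0 when every column had to hold at least 10 counts, and 0 with a mean of at least 30 counts, since these filters remove the low transcripts, 16 with no filter and 3 on the FPKM scale with a pseudocount of 1, where MT1X-204 lay at -0.73. The SLC30A median of 0.19 became -0.19 with no filter (13 transcripts). The SLC39A median of -0.96 became 0.11 under the former of these filters, 0.014 with a mean of at least 30 counts and -2.11 with no filter. No metallothionein passed the former 2 filters. Leaving out 1 column in turn gave 0 higher and 4 lower throughout, and medians of 0.16 to 0.22 for SLC30A, -1.19 to -0.79 for SLC39A and -1.98 to -1.58 for MT1X. With the replicate number as a block the counts were 0 and 4 and the medians 0.19, -0.96 and -1.77. Since the columns of a group were counted as 1 sample, the number pairs no samples. Near 0 the sign depended on the setting for SLC30A4-201 (-0.01 to 0.37). SLC30A9-203 was negative in the 14 settings that fitted the transcript itself (-0.41 to -0.03). Counts summed per gene gave 0.47, a value of the gene SLC30A9, most of whose counts are on SLC30A9-201. The median of all transcripts moved between -0.83 and 0.01 with the filter, and it was -0.83 over the 39729 transcripts with no filter. Shares of all transcripts past 2-fold were computed for the main edgeR analysis alone. The numbers of higher and lower members under other settings have no such share beside them and are not read as a trait of the members.

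Folds below about 30 counts, bases shared between transcripts and the lack of replicate samples limit these values, and the treatment cannot be told apart from any other difference between the 2 groups' samples.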

Other observations

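A further list of 34 genes held transporters and chaperones of copper, iron, manganese and magnesium and some genes of other function, such as SELENOH, of a selenoprotein, GCLC, of glutathione synthesis, and GPR39, of a zinc receptor. Of these genes 25 have a count. Of their 33 tested transcripts, 6 were 2-fold higher in HgCl2 and 12 lower, with a median log2 fold change of -0.03, beside 19.2% higher and 34.1% lower and a median of -0.21 among all tested transcripts. The transcripts named here are those past 2-fold with a mean of at least 30 counts in a group, beside those added for comparison. FTH1-201, of the ferritin heavy chain, had 93 and 113 counts in EtOH and 34 and 36 in HgCl2, a log2 fold change of -1.41 (-2.01 to -0.85). SLC40A1-201, of the iron exporter ferroportin, had 69 and 78 counts in EtOH and 23 and 23 in HgCl2, a log2 fold change of -1.53 (-2.28 to -0.84). FTL-201, of the ferritin light chain, lay just inside 2-fold, at -0.98 (-1.28 to -0.68), with 303 and 289 counts in EtOH and 136 and 136 in HgCl2.

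The retained-intron transcript SELENOH-203, the counted form of that gene, had 46 and 52 counts in EtOH and 8 and 5 in HgCl2, and SLC25A37-205 had 30 and 31 against 10 and 12. IREB2-208, a coding transcript of an iron regulatory protein, had 30 and 30 counts in EtOH and 90 and 75 in HgCl2, and the retained-intron transcript SCO1-204 had 13 and 9 against 43 and 41. The transcripts of these genes with the most counts lay within 2-fold for IREB2, SLC25A37 and SCO1, with log2 fold changes of -0.03 for IREB2-201, 0.09 for SLC25A37-206, of a mitochondrial iron importer, and 0.37 for SCO1-201. SLC31A1-201, of the plasma membrane copper importer, had 1245 and 1255 counts in EtOH and 1236 and 1197 in HgCl2, a log2 fold change of 0.10 (-0.01 to 0.22). The retained-intron transcript FTH1-209 went the other way from FTH1-201, with 39 and 36 counts in EtOH and 58 and 63 in HgCl2.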
